A study of Mus musculus with 14 samples.

Results

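Kit, Ano1, Etv1 and Kitl are the genes by which interstitial cells of Cajal are usually recognised, and they were chosen here by name as 4 of the 21898 genes in a table of read counts for mouse colon. All 4 passed the filter on low counts, as did 14070 genes in all. The colon came from wild-type mice gavaged with Bacteroides thetaiotaomicron, an anaerobic gut bacterium that breaks down polysaccharides, or with phosphate-buffered saline (PBS). There were 7 libraries after B. thetaiotaomicron and 7 after PBS, numbered here 1 to 7 within each group. The series title places the bacterium in a study of saliva and hypertension. The sources used here give no strain, age, dose, time after gavage or stretch of colon taken. Most titles call the samples biological replicates, but the labels do not tie each sample to 1 animal, so the tests measure the spread between these samples.

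Interstitial cells of Cajal lie between the smooth muscle layers and around the enteric nerves of the gut, where they set the rhythm of slow waves and pass signals from nerve to muscle. They depend on signalling through KIT, a receptor tyrosine kinase that is switched on by its ligand, stem cell factor, the product of Kitl. KIT signalling stabilises ETV1, a transcription factor of the ETS family that drives the gene programme of these cells, and ANO1, a chloride channel opened by calcium, carries their pacemaker current. None of the 4 genes belongs to these cells alone. Mast cells and secretory cells of the colonic crypt also express Kit, epithelial cells can express Ano1, neurons can express Etv1, and Kitl is made by several cell types around the cells that answer to it. In bulk tissue, fewer cells of a type and less RNA per cell cannot be told apart.

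The libraries held 13150140 to 16781708 counts each, and an exact two-sided permutation test of the totals between groups gave p = 0.679. Genes of the whole colon wall were present: Myh11, a smooth muscle myosin gene, lay at 954 to 1586 CPM (read counts scaled to library size) after B. thetaiotaomicron and 978 to 1729 CPM after PBS, and Epcam, an epithelial gene, at 1769 to 1932 CPM and 1418 to 1750 CPM in the same groups. B. thetaiotaomicron library 3 and PBS libraries 1, 3 and 5 stood apart from the other 10 in earlier results of these data. They had more Hoxb13, a gene of the distal hindgut, than the other 10, with a log2 CPM of 8.55 to 8.88 against -1.60 to 8.04. Correlations are given over all 14 libraries and again over the other 10. Hoxb13 ranged from 4.38 to 376 CPM after B. thetaiotaomicron and from 0.195 to 470 CPM after PBS.

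In GENCODE M21 on GRCm38, Kit (ENSMUSG00000005672) lies on the plus strand of chromosome 5 at 75574916 to 75656722, and Ano1 (ENSMUSG00000031075) on the minus strand of chromosome 7 at 144588549 to 144751974. Etv1 (ENSMUSG00000004151) lies on chromosome 12 at 38779380 to 38870484 and Kitl (ENSMUSG00000019966) on chromosome 10 at 100015630 to 100100416, both on the plus strand. All are protein-coding genes, with read counts given per gene, so no exon is singled out. An antisense gene, Gm44930, overlaps Ano1 on the other strand and was not analysed here. Whether the counting used strand is not given in the sources used here, so reads of that antisense gene would not be told apart from Ano1 if it did not.

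The promoters of Kit and Ano1 are shown because these genes ran in opposite directions across the libraries and because ETV1 binds the ETS core GGAA. The sequences are from RefSeq on GRCm38.p6 and run from 250 bases before the annotated start to 50 after it, at chr5:75574737-75575036 on the plus strand for Kit (the first of 2 starts) and chr7:144738524-144738823 on the minus strand for Ano1. The Ano1 window is at the RefSeq start and lies inside the GENCODE span given above, which begins at 144751974 on the minus strand. Capitals mark GGAA and its reverse complement TTCC.
Kit promoter: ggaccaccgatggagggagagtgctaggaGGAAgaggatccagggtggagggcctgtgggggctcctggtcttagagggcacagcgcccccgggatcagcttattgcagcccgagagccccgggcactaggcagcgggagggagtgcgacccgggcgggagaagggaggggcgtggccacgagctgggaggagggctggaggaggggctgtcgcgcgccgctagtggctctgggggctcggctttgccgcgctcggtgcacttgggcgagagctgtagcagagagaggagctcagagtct
Ano1 promoter: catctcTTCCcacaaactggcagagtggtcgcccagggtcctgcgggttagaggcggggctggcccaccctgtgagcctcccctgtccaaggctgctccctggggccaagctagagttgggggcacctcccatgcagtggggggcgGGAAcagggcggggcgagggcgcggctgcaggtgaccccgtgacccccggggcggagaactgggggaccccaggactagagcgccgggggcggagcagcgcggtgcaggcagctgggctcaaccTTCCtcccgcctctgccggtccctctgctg

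The ETS core occurred 1 time in the Kit promoter and 3 times in the Ano1 promoter. The Etv1 promoter, at the first of its 2 annotated starts, held 5 such cores, and the Kitl promoter held 4. The window at the second Etv1 start held 1. Over 27025 mouse promoters of the same length the median was 3, and 95.9% held at least 1. The longer form CCGGAA, on either strand, was found 1 time in Kitl and was absent from the other 3 windows, and 15.2% of all promoters held it. The GC box GGGCGG, on either strand, occurred 1 time in Kit, 4 times in Ano1, 3 times in Kitl and not in Etv1, against 35.9% of all promoters with at least 1. Kitl had the TATA box TATAAA at -25, which 14.2% of promoters hold on either strand, and the letters AATAAA, a core bound by HOX13 proteins, were in none of the 4 and in 19.96% of all. The GC content was 69.0% for Kit, 71.7% for Ano1, 48.7% for Etv1 at its first start and 68.7% for Kitl, against a median of 52.7%. A match describes the letters in the window and is not evidence of binding.

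The comparison of the gavages asked whether any of the 4 genes differed in level after the bacterium, and none passed the test. Kitl, which encodes the ligand, was the steadiest. Its lowest, median and highest levels were 181, 187 and 211 CPM after B. thetaiotaomicron and 151, 176 and 200 CPM after PBS. The groups overlapped: B. thetaiotaomicron library 1 was the highest of all 14, the other 6 of that group lay within 181 to 190 CPM, and PBS libraries 3 and 1 were the lowest. Kitl averaged 189 ± 10.2 CPM after B. thetaiotaomicron and 179 ± 17.6 CPM after PBS (SD, n = 7 each). The log2 fold change was 0.08 ± 0.06 (SE), with an edgeR quasi-likelihood p of 0.204 and a Benjamini-Hochberg adjusted p of 0.564.

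Kit, the receptor, had its lowest, median and highest levels at 62.7, 116 and 127 CPM after B. thetaiotaomicron and at 53.1, 99.8 and 146 CPM after PBS. PBS libraries 3, 1 and 5 and B. thetaiotaomicron library 3 held the lowest values, PBS library 4 the highest, and the groups overlapped over most of their range. The means were 105 ± 22.8 CPM after B. thetaiotaomicron and 95.7 ± 35.0 CPM after PBS (SD, n = 7 each). The log2 fold change was 0.14 ± 0.23 (SE), with an adjusted p of 0.820 in edgeR.

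Etv1, the transcription factor, was the lowest of the 4. Its lowest, median and highest levels were 16.4, 17.5 and 22.4 CPM after B. thetaiotaomicron and 13.2, 19.1 and 26.3 CPM after PBS. The range of the B. thetaiotaomicron libraries lay inside that of the PBS libraries, whose ends were PBS library 1 and PBS library 4. The means were 18.4 ± 2.16 CPM after B. thetaiotaomicron and 18.4 ± 4.53 CPM after PBS (SD, n = 7 each). On the log2 scale the fold change was 0.0023 ± 0.14 (SE), with an adjusted p of 0.996 in edgeR.

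Ano1, the chloride channel, varied most. Its lowest, median and highest levels were 83.8, 158 and 297 CPM after B. thetaiotaomicron and 75.3, 169 and 282 CPM after PBS. The highest values were those of B. thetaiotaomicron library 3 and PBS libraries 5, 1 and 3, and the lowest those of PBS library 4 and B. thetaiotaomicron library 2, so both ends held libraries of both groups. The means were 172 ± 70.3 CPM after B. thetaiotaomicron and 193 ± 77.2 CPM after PBS (SD, n = 7 each). The log2 fold change was -0.17 ± 0.31 (SE), with an adjusted p of 0.840 in edgeR.

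**Figure D1:**
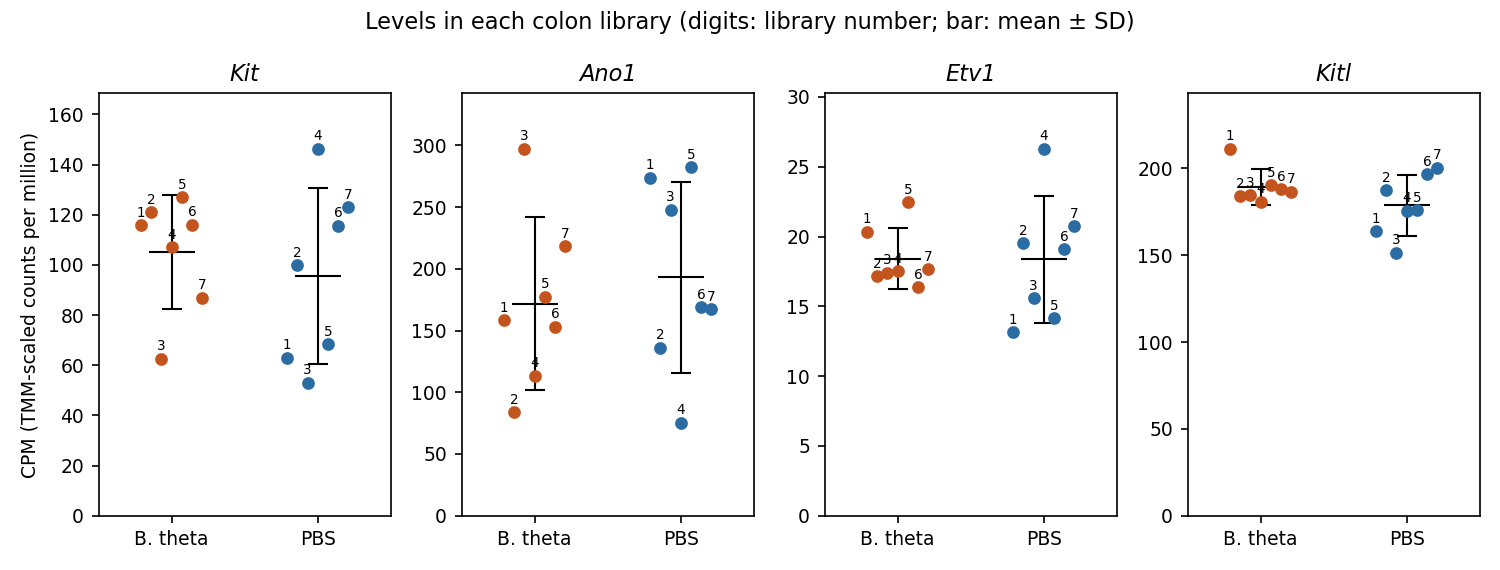
Level of each gene in CPM (TMM-scaled) in the 7 B. thetaiotaomicron libraries on the left of each panel and the 7 PBS libraries on the right. Points are libraries with their numbers, and bars are the mean ± SD. The groups overlap for all 4 genes; Ano1 reaches 297 CPM in B. thetaiotaomicron library 3, and Kitl stays between 151 and 211 CPM.

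In edgeR's quasi-likelihood test, 0 of the 4 genes passed an adjusted p of 0.05, where 35 of all 14070 genes did, or 0.249%. None of the 4 had an unadjusted p under 0.05, which 2145 of the 14070 genes had (15.2%), and DESeq2 and limma-voom also called 0 of the 4. The 95% intervals of the log2 fold changes ran from -0.05 to 0.22 for Kitl, -0.36 to 0.63 for Kit, -0.29 to 0.29 for Etv1 and -0.84 to 0.51 for Ano1. The interval was narrowest for Kitl and widest for Ano1, and all 4 included 0. Leaving out the 4 libraries that stood apart turned the sign for Kit, to -0.11, for Ano1, to 0.14, and for Etv1, to -0.20, with adjusted p in edgeR of 0.763, 0.892 and 0.547. Adding the mean level of distal hindgut genes as a covariate also turned these signs, to -0.014, 0.10 and -0.06.

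**Figure D2:**
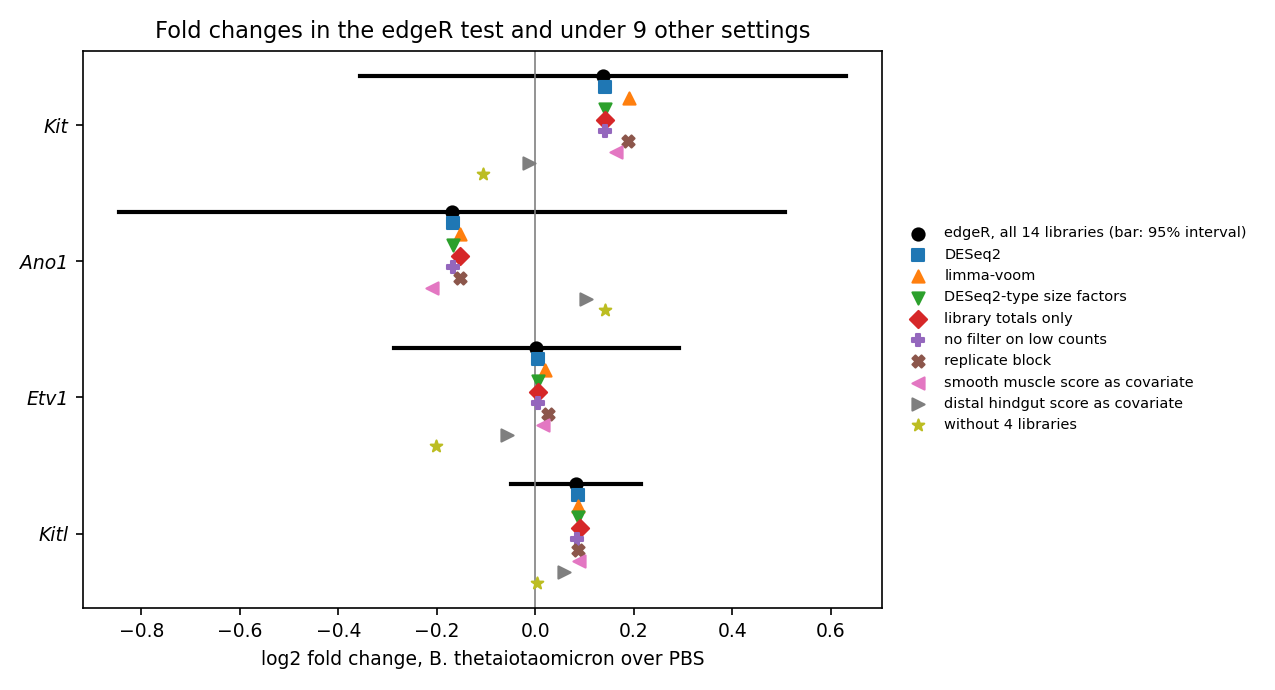
Log2 fold change of each gene, B. thetaiotaomicron over PBS, in edgeR's test of all 14 libraries (black, with its 95% interval) and under 9 other settings. The intervals of all 4 genes include 0, and Kit, Ano1 and Etv1 change sign without the 4 libraries, to -0.11, 0.14 and -0.20.

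The ratio of ligand to receptor within a library is free of library scaling. The log2 difference of Kitl and Kit was 0.88 ± 0.35 after B. thetaiotaomicron and 0.98 ± 0.45 after PBS (SD, n = 7 each), a group difference of -0.10 (exact permutation p = 0.640, two-sided, adjusted p = 0.640 over 2 ratios). Kit relative to Ano1 had a log2 difference of -0.64 ± 0.90 after B. thetaiotaomicron and -0.98 ± 1.19 after PBS (SD, n = 7 each), a difference of 0.34 (exact permutation p = 0.559, adjusted p = 0.640). Single libraries lay far apart in this ratio: it ran from -2.24 to 0.53 after B. thetaiotaomicron and from -2.22 to 0.96 after PBS. Without the 4 libraries the group differences were 0.11 for Kitl over Kit and -0.25 for Kit over Ano1, with exact permutation p of 0.490 and 0.605.

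Levels of different genes can be set beside each other only per length, for which the authors' FPKM values were used. Kitl averaged 32.1 ± 1.90 FPKM after B. thetaiotaomicron and 30.2 ± 3.23 FPKM after PBS, and Ano1 27.2 ± 10.8 FPKM and 30.2 ± 11.6 FPKM in the same groups (SD, n = 7 each). Kit averaged 11.9 ± 2.64 FPKM after B. thetaiotaomicron and 10.8 ± 4.12 FPKM after PBS, and Etv1 1.39 ± 0.173 FPKM and 1.38 ± 0.369 FPKM (SD, n = 7 each). Etv1 was the lowest of the 4 in all 14 libraries, with no overlap with the others. Kitl led Ano1, Kit and Etv1 in that order in 7 libraries. In 5 libraries, B. thetaiotaomicron 3 and 7 and PBS 1, 3 and 5, Ano1 was above Kitl. In the remaining 2, B. thetaiotaomicron 2 and PBS 4, Kit was above Ano1. Kitl and Ano1 therefore do not differ beyond their spread in this order, and the ranges of Ano1 and Kit also overlapped.

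Most of the variance of these genes lay within the groups. The share between the gavages was 1.61% of the variance in log2 CPM for Ano1, 4.64% for Kit, 0.405% for Etv1 and 14.4% for Kitl, against a median of 7.47% over all genes tested. The SD of log2 CPM within groups was 0.64 for Ano1, larger than in 93.3% of genes, and 0.47 for Kit, larger than in 86.3%. For Etv1 it was 0.27, larger than in 65.8% of genes, and for Kitl 0.11, larger than in 19.7%. From the lowest to the highest library of its group, Ano1 spanned 3.55-fold after B. thetaiotaomicron and 3.74-fold after PBS, while Kitl spanned 1.17-fold and 1.32-fold. Kit spanned 2.03-fold after B. thetaiotaomicron and 2.76-fold after PBS, and Etv1 1.37-fold and 1.999-fold.

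The 4 genes did not all vary together across libraries. Correlations of log2 CPM were computed for all 6 pairs over 14 libraries, which share scaling and library, with permutation p adjusted over the 6. Kit and Ano1 ran in opposite directions, with r = -0.81 (adjusted permutation p = 0.0034) and Spearman's rho = -0.71 (adjusted permutation p = 0.0181), and r = -0.78 without the 2 libraries farthest from the median of Kit. The sign was the same within the B. thetaiotaomicron libraries (r = -0.75, n = 7) and the PBS libraries (r = -0.86, n = 7). Kit ranged over 5.73 to 6.10 log2 CPM in the 4 libraries that stood apart and 6.44 to 7.20 in the other 10. Ano1 ranged over 7.95 to 8.22 and 6.24 to 7.77. Neither gene had an overlap, but nor did Hoxb13 or marker genes named below (Thbs4, Muc2 and Spdef). The 4 libraries were set apart from earlier results of these data. The share of all genes without overlap was not computed. Among the other 10 libraries r was -0.56 (adjusted permutation p = 0.177), the same sign over fewer libraries.

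Kit and Etv1 ran together, with r = 0.77 (adjusted permutation p = 0.0041) and rho = 0.71 (adjusted permutation p = 0.0181) over 14 libraries. Without the 2 libraries farthest from the median of Kit r was 0.86, and among the 10 libraries it was 0.65 (adjusted permutation p = 0.177). It was 0.36 within the B. thetaiotaomicron libraries and 0.91 within the PBS libraries (n = 7 each), where PBS library 4 was the highest for both genes. Etv1 and Ano1 ran in opposite directions, with r = -0.61 (adjusted permutation p = 0.0295) but rho = -0.48 (adjusted permutation p = 0.108). Their r was 0.15 within the B. thetaiotaomicron libraries and -0.96 within the PBS libraries, and the difference between these was not tested. Among the 10 libraries r was -0.25.

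Kitl and Kit, ligand and receptor, had r = 0.67 (adjusted permutation p = 0.0160) and rho = 0.47 (adjusted permutation p = 0.108). That relation did not hold among the 10 libraries, where r was -0.08, and without the 2 libraries farthest from the median of Kit r was 0.55 with an adjusted permutation p of 0.0833. Kitl had r = 0.50 with Etv1 and -0.26 with Ano1 over 14 libraries, with adjusted permutation p of 0.0811 and 0.380, and rho of 0.57 and -0.16 (adjusted permutation p = 0.0714 and 0.582). Among the 10 libraries these were -0.05 and 0.59 (adjusted permutation p = 0.898 and 0.177). Interstitial cells of Cajal join the 4 genes by their known roles, but the levels of the 4 did not go up and down as a set in these libraries, so they are called here by their own names.

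**Figure D3:**
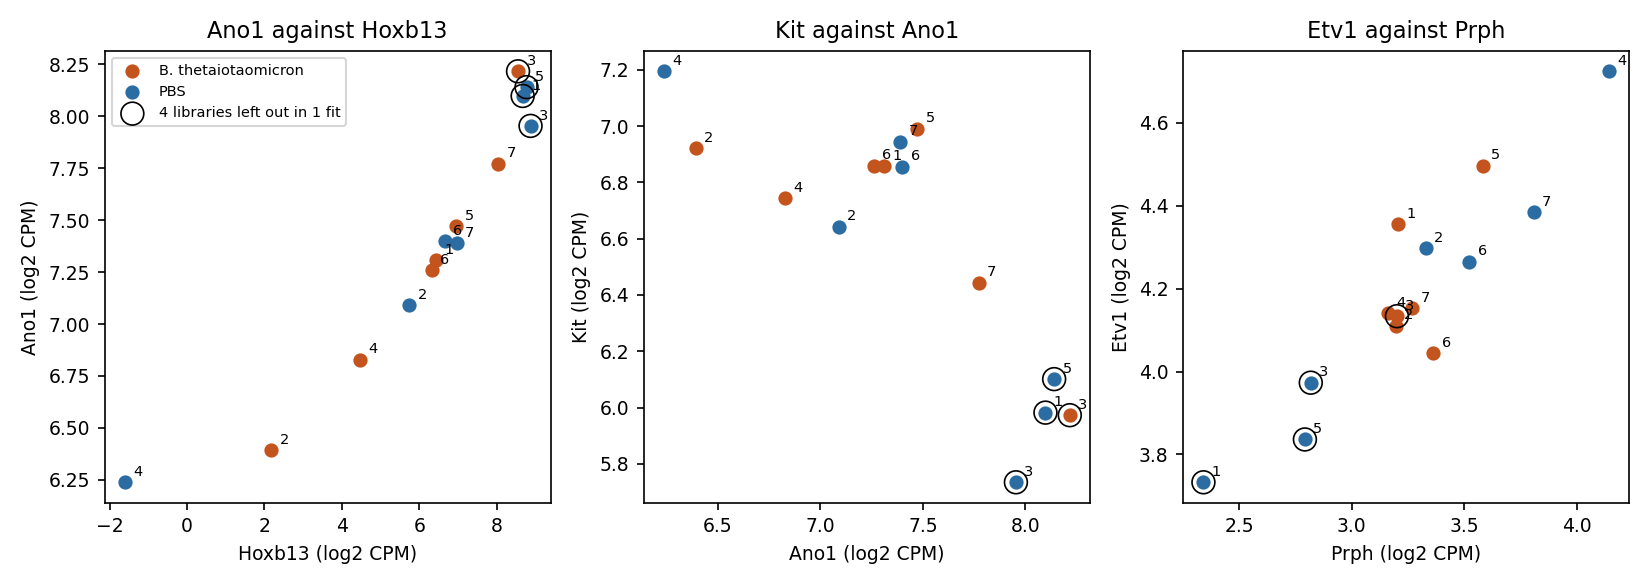
Levels in log2 CPM of Ano1 against Hoxb13, Kit against Ano1 and Etv1 against Prph in each library, B. thetaiotaomicron in orange and PBS in blue, with library numbers. Rings mark B. thetaiotaomicron library 3 and PBS libraries 1, 3 and 5. Ano1 climbs with Hoxb13 (r = 0.94), Kit falls as Ano1 climbs (r = -0.81), and Etv1 climbs with Prph (r = 0.92). Without the ringed libraries these are 0.95, -0.56 and 0.82.

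Marker genes of other cells and of the position along the colon moved with the 4 genes, and their part in the levels was not tested. Ano1 followed the mean level of the distal hindgut genes. Against the mean log2 CPM of 5 Hox genes of that list, r was 0.87 (adjusted permutation p = 0.0014 over 40 relations of the 4 genes to 10 lists) and rho was 0.93 (adjusted permutation p = 0.0008). It was 0.90 without the 2 libraries farthest from the median, 0.92 within the B. thetaiotaomicron libraries, 0.86 within the PBS libraries and 0.82 among the 10 libraries. Hoxb13 alone had r = 0.94 with Ano1 over 14 libraries and 0.95 over the 10, Hoxd13 0.90 and 0.93 and Hoxa13 0.66 and 0.70, as a description. The other 2 genes of the mean, Hoxd11 and Hoxd10, had r = 0.20 and 0.12 with Ano1 over 14 libraries and -0.50 and -0.45 over the 10, so the list did not move as a set. The summed level of the 5 Hox genes ran from 56.6 to 506 CPM after B. thetaiotaomicron and from 14.5 to 789 CPM after PBS, and Hoxd12, the other gene of that list, had 0 to 146 counts and was not tested. Kit went the other way, with r = -0.86 against the same list over 14 libraries (adjusted permutation p = 0.0014) and rho = -0.70 (adjusted permutation p = 0.0367). Its r was -0.73 without the 2 farthest libraries and -0.40 among the 10. Between the gavages, the 5 Hox genes had 1 positive and 4 negative log2 fold changes with a median of -2.09. In edgeR 0 were called, with a smallest adjusted p of 0.212. The median was that of Hoxd10, which averaged 0.679 CPM after B. thetaiotaomicron and 2.84 CPM after PBS. Hoxd11 averaged 0.443 and 3.01 CPM, and each fell to 0 CPM in at least 1 library. These 2 had an unadjusted p under 0.05 in edgeR, as did 15.2% of all genes. Hoxb13, Hoxd13 and Hoxa13 had log2 fold changes of -0.74, -2.67 and 0.11, with unadjusted p above 0.05.

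Etv1 and Kit followed the genes of enteric neurons. Etv1 had r = 0.90 with the mean log2 CPM of 10 neuronal genes (adjusted permutation p = 0.0012) and rho = 0.79 (adjusted permutation p = 0.0112), and r was 0.80 without the 2 farthest libraries and 0.88 among the 10. Within the B. thetaiotaomicron libraries it was 0.68 and within the PBS libraries 0.96. Kit had r = 0.84 with the same list (adjusted permutation p = 0.0014), rho = 0.86 (adjusted permutation p = 0.0032), and r = 0.83 without the 2 farthest libraries and 0.81 among the 10. All 10 neuronal genes had a positive r with Etv1 and with Kit, at medians of 0.74 and 0.68, and 0 of the 10 had one with Ano1. These signs were shared by 10 smooth muscle genes, 4 enteric glial genes and 3 genes of PDGFRA-positive interstitial cells. Their medians were 0.26, 0.55 and 0.66 with Etv1 and 0.39, 0.34 and 0.51 with Kit. Ano1 ran against the mean of the neuronal list, with r = -0.72 (adjusted permutation p = 0.0152) and rho = -0.68 (adjusted permutation p = 0.0379), but -0.50 without the 2 farthest libraries and -0.37 among the 10. Enteric glial genes also went with Etv1, at r = 0.67 (adjusted permutation p = 0.0348) and rho = 0.71 (adjusted permutation p = 0.0330), and at 0.65 without the 2 farthest libraries and 0.62 among the 10. Prph, the neuronal filament gene peripherin, had r = 0.92 with Etv1 over 14 libraries and 0.82 over the 10. It lay at 8.83 to 11.9 CPM after B. thetaiotaomicron and 4.94 to 17.5 CPM after PBS. The summed level of the 10 genes was 83.4 to 128 CPM after B. thetaiotaomicron and 65.3 to 160 CPM after PBS.

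Kit was also related to secretory genes of the colonic crypt over 14 libraries. Its r with the mean of 5 such genes was 0.82 (adjusted permutation p = 0.0022), with rho = 0.76 (adjusted permutation p = 0.0194), and it was 0.91 without the 2 farthest libraries but 0.12 among the 10. The genes of that list went in different directions: Kit had r = 0.95 with Spdef, a transcription factor of goblet cells, 0.93 with Muc2, the main mucin of colonic mucus, 0.85 with Agr2, 0.54 with Spink4 and -0.82 with Reg4. Among the 10 libraries these were 0.69, 0.58, -0.22, -0.60 and -0.18, negative for 3 of the 5. Spdef lay at 25.99 to 133 CPM after B. thetaiotaomicron and 23.8 to 180 CPM after PBS, and Muc2 at 1407 to 5447 CPM and 910 to 4690 CPM. The listed genes of mast cells, another known source of Kit, had low counts. Tpsab1 was at 0 in all 14 libraries, Cpa3 had 2 to 11 counts, and 7 of the 11 genes of that list did not pass the filter. The 4 that passed were Mcpt1, Mcpt2, Hdc and Gata2. Their summed level was 8.497 to 23.4 CPM after B. thetaiotaomicron and 5.67 to 13.9 CPM after PBS. Kit had r = 0.09 and rho = -0.09 with their mean (adjusted permutation p = 0.780 and 0.803). Tpsg1, a tryptase gene outside that list, averaged 32.2 CPM after B. thetaiotaomicron and 26.9 CPM after PBS. It was among the 5 genes most like Kit, with a group-centred r of 0.98, and r was 0.84 among the 10 libraries. Which cells held Tpsg1 was not tested.

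The mean of epithelial genes went with Kit and Kitl and against Ano1 over 14 libraries, but the genes of that list did not go as a set. Against the mean of 6 such genes, r was 0.79 for Kit, 0.76 for Kitl and -0.62 for Ano1 (adjusted permutation p = 0.0027, 0.0143 and 0.0478), and rho was 0.52, 0.45 and -0.75 (adjusted permutation p = 0.163, 0.224 and 0.0197). Without the 2 farthest libraries r was 0.64, 0.43 and -0.67, and among the 10 it was -0.12, -0.13 and -0.37. Etv1 had r = 0.42 with that mean (adjusted permutation p = 0.217). Of the 6 genes, 5 had a positive and 1 a negative r with Kit over 14 libraries, and 1 a positive and 5 a negative r with Ano1. The 1 was Cdh1 in both, at -0.69 with Kit and 0.88 with Ano1, and at -0.59 and 0.81 over the 10. Cdx2 stood at 0.90 and -0.73 over 14 libraries and at 0.74 and -0.93 over the 10.

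Smooth muscle genes, which share the muscle layers with these cells, had no relation to Kit that passed the adjustment (r = 0.44 and rho = 0.23, adjusted permutation p = 0.193 and 0.515 over the 40), nor to the other 3 genes. Etv1 ran with the 3 genes of PDGFRA-positive cells, interstitial cells that lie beside those of Cajal, at r = 0.78 (adjusted permutation p = 0.0050), with rho = 0.69 (adjusted permutation p = 0.0379), and at r = 0.70 without the 2 farthest libraries and 0.82 among the 10. Kit had r = 0.60 and rho = 0.65 with the same mean, which did not pass (adjusted permutation p = 0.0673 and 0.0516). Its r was 0.50 without the 2 farthest libraries and 0.84 among the 10. Pdgfra itself averaged 113 ± 12.6 CPM after B. thetaiotaomicron and 116 ± 12.7 CPM after PBS (SD, n = 7 each), with an adjusted p of 0.864 in edgeR.

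Other genes of interstitial cells of Cajal had opposite signs with Kit and Ano1, as did the neuronal, glial, smooth muscle and PDGFRA lists. Kit and Ano1 ran against each other (r = -0.81), so the signs with 1 of them are not independent of those with the other. Of 7 such genes, Hcn4, with 1 to 15 counts, did not pass the filter. Kit had a positive r with 5 of the other 6 over 14 libraries, namely Prkcq (0.89), Cacna1h (0.90), Cd44 (0.88), Igf1r (0.72) and Gjc1 (0.48), and r = -0.74 with Thbs4, a thrombospondin gene. Over the 10 libraries these were 0.38, 0.62, 0.43, 0.40, 0.57 and -0.66, so the signs stood but the values for Prkcq, Cd44 and Igf1r were much smaller. Ano1 had a positive r with Thbs4, at 0.94 over 14 libraries and 0.93 over the 10, and a negative r with the other 5. It was -0.86 for Cacna1h, -0.83 for Cd44, -0.77 for Prkcq, -0.56 for Igf1r and -0.50 for Gjc1 over 14 libraries, and -0.74, -0.71, -0.40, -0.08 and -0.29 over the 10. Thbs4 ranged from 65.3 to 309 CPM after B. thetaiotaomicron and from 19.7 to 344 CPM after PBS, with the 4 libraries that stood apart at the top. Kitl was the member whose relation to the mean of the 6 genes passed the adjustment over 14 libraries, with r = 0.74 (adjusted permutation p = 0.0057), rho = 0.85 (adjusted permutation p = 0.0033), and r = 0.81 without the 2 farthest libraries and 0.71 among the 10. Gene by gene, Kitl had r = -0.14 with Thbs4, 0.72 with Prkcq and 0.61 with Cacna1h over 14 libraries. It had 0.55 with Cd44, 0.61 with Igf1r and 0.04 with Gjc1. Over the 10 libraries these 6 were 0.63, 0.20, -0.20, -0.45, 0.21 and -0.18, so not all signs stood. For Etv1 the r with the mean of the 6 genes was 0.41 over 14 libraries (adjusted permutation p = 0.222) and rho 0.53, but 0.84 without the 2 farthest, PBS libraries 4 and 5, and -0.28 among the 10. In edgeR 0 of the 6 were called and 0 had an unadjusted p under 0.05. Their log2 fold changes ran from -0.31 ± 0.49 (SE) for Thbs4 to 0.24 ± 0.22 (SE) for Cd44.

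**Figure D4:**
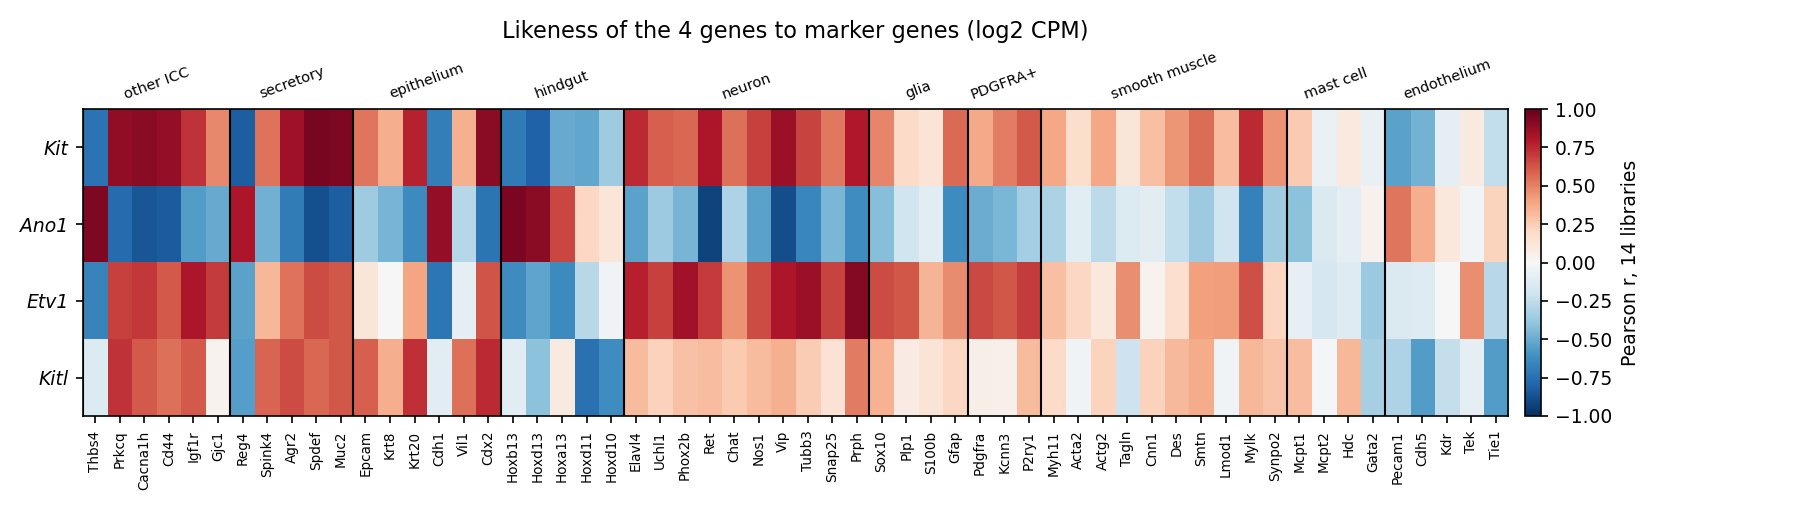
Pearson r over 14 libraries of log2 CPM of Kit, Ano1, Etv1 and Kitl (rows) with single marker genes (columns, grouped by list), from -1 in blue to 1 in red. Kit and Ano1, which run against each other (r = -0.81), have opposite colours in most columns, so these colours are not separate evidence. With Thbs4 they stand at -0.74 and 0.94, and with Spdef at 0.95 and -0.88. Over the 10 libraries these are -0.66 and 0.93, and 0.69 and -0.88.

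Over all genes tested, the genes whose group-centred log2 CPM was most like that of a member were found as a description, over 14 libraries. For Kit they were Pcsk5, Elapor1, Lrat, Bace2 and Tpsg1, each at r = 0.98, and among the 10 libraries between 0.83 and 0.93. For Ano1 they were St6galnac4, B3gnt7, Tnip1, Adh1 and Trak1, also at 0.98, and between 0.90 and 0.99 among the 10. For Etv1 they were Syt4 (0.94), Prph (0.92), Napb (0.92), Pirt (0.90) and Creg1 (0.90), and for Kitl Spty2d1 (0.94), Hmces (0.90), Capn9 (0.90), Hs3st2 (0.89) and Neurl1b (0.88). Among the 10 libraries the r of these genes lay between 0.75 and 0.87 for Etv1 and between 0.52, for Spty2d1, and 0.89, for Capn9, for Kitl. Kit had 234 genes with r above 0.9 and Ano1 252 of 14069, while Etv1 had 7 and Kitl 1. These counts were not made over the 10 libraries. Over the 14, the patterns of Kit and Ano1 were thus shared by many more genes than those of Etv1 and Kitl. B3gnt7, a glycosyltransferase gene, showed its width: it ranged from 41.4 to 566 CPM after B. thetaiotaomicron and from 18.6 to 639 CPM after PBS.

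The genes around the 4 in their pathways were compared between the gavages in the same fit, and 0 were called in any list. Of 19 genes of KIT signalling, 9 had positive and 10 negative log2 fold changes, with a median of -0.023 against -0.013 for all genes tested, and 4 of the 19 had an unadjusted p under 0.05, near the 15.2% of all genes that did. Sos1, the exchange factor that links the receptor to RAS, averaged 50.9 ± 4.15 CPM after B. thetaiotaomicron and 63.2 ± 6.77 CPM after PBS (SD, n = 7 each), with a log2 fold change of -0.31 ± 0.07 (SE) and an adjusted p of 0.0752 in edgeR. Lyn, a SRC-family kinase gene, averaged 64.6 ± 4.58 CPM after B. thetaiotaomicron and 55.4 ± 6.75 CPM after PBS, with a log2 fold change of 0.22 ± 0.07 (SE) and an adjusted p of 0.173 in edgeR. Of 4 genes for related type III receptors, 2 had an unadjusted p under 0.05, against 15.2% of all genes. They were Flt3 and Csf1r, with log2 fold changes of 0.65 ± 0.17 (SE) and 0.25 ± 0.09 (SE) and adjusted p of 0.0986 and 0.176 in edgeR. These 2 receptors belong to dendritic cells and macrophages.

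Downstream of KIT, the 11 genes of ETV1 partners and feedback on the MAP kinase pathway had 4 positive and 7 negative fold changes with a median log2 of -0.024, and 0 with an unadjusted p under 0.05. Etv5, a close relative of Etv1, averaged 63.1 ± 19.7 CPM after B. thetaiotaomicron and 45.5 ± 23.6 CPM after PBS (SD, n = 7 each), or 0.47 ± 0.36 (SE) as a log2 fold change with an adjusted p of 0.571 in edgeR. Etv5 had r = 0.86 with Kit over 14 libraries and 0.17 over the 10. Etv4, of the same list, went the other way, with r = -0.79 with Kit over 14 libraries and -0.71 over the 10. With Ano1 its r was 0.81 and 0.78. Its log2 fold change was -0.36 ± 0.37 (SE), with an adjusted p of 0.690 in edgeR. Over 14 libraries, 5 of the 11 genes had a positive and 6 a negative r with Kit. Spry1, a feedback inhibitor, differed by -0.19 ± 0.14 (SE) on the log2 scale.

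Of 8 other anoctamins, the family of Ano1, 6 had positive and 2 negative fold changes, with a median log2 of 0.05 and 0 with an unadjusted p under 0.05. Ano3, with 0 to 15 counts, did not pass the filter. Ano2, the other chloride channel of the family, averaged 1.86 ± 0.382 CPM after B. thetaiotaomicron and 1.34 ± 0.565 CPM after PBS (SD, n = 7 each), with an adjusted p of 0.417 in edgeR. Ano7 differed by 0.39 ± 0.28 (SE) on the log2 scale, and its r was 0.95 with Kit and -0.78 with Ano1 over 14 libraries, and 0.62 and -0.48 over the 10. Ano10 had r = 0.90 with Kit and -0.86 with Ano1, and 0.61 and -0.70 over the 10. The family did not go as a set. Over 14 libraries 5 of the 8 had a positive and 3 a negative r with Kit, at a median of 0.27. With Ano1, 2 were positive and 6 negative, at a median of -0.26. Ano8 had r = -0.55 with Kit and 0.69 with Ano1, and 0.26 and 0.42 over the 10.

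Among 16 genes of the calcium and chloride handling behind the pacemaker, 5 had positive and 11 negative fold changes, with a median log2 of -0.09, and 2 of the 16 had an unadjusted p under 0.05, no more than the share of all genes. They were Cacna1g, a T-type calcium channel gene, at -0.46 ± 0.16 (SE) on the log2 scale, and Atp2b1, a calcium pump gene, at -0.20 ± 0.09 (SE), with adjusted p of 0.190 and 0.309 in edgeR. Of 8 genes of the nitric oxide response, through which nerves relax the muscle, 1 had an unadjusted p under 0.05, against 15.2% of all genes. Gucy1a2, a subunit of the nitric oxide receptor, averaged 0.520 ± 0.269 CPM after B. thetaiotaomicron and 1.30 ± 0.396 CPM after PBS (SD, n = 7 each), or -1.30 ± 0.32 (SE) as a log2 fold change with an adjusted p of 0.0892 in edgeR. Prkg1, the kinase that acts after it, had -0.14 ± 0.09 (SE) on the log2 scale.

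**Figure D5:**
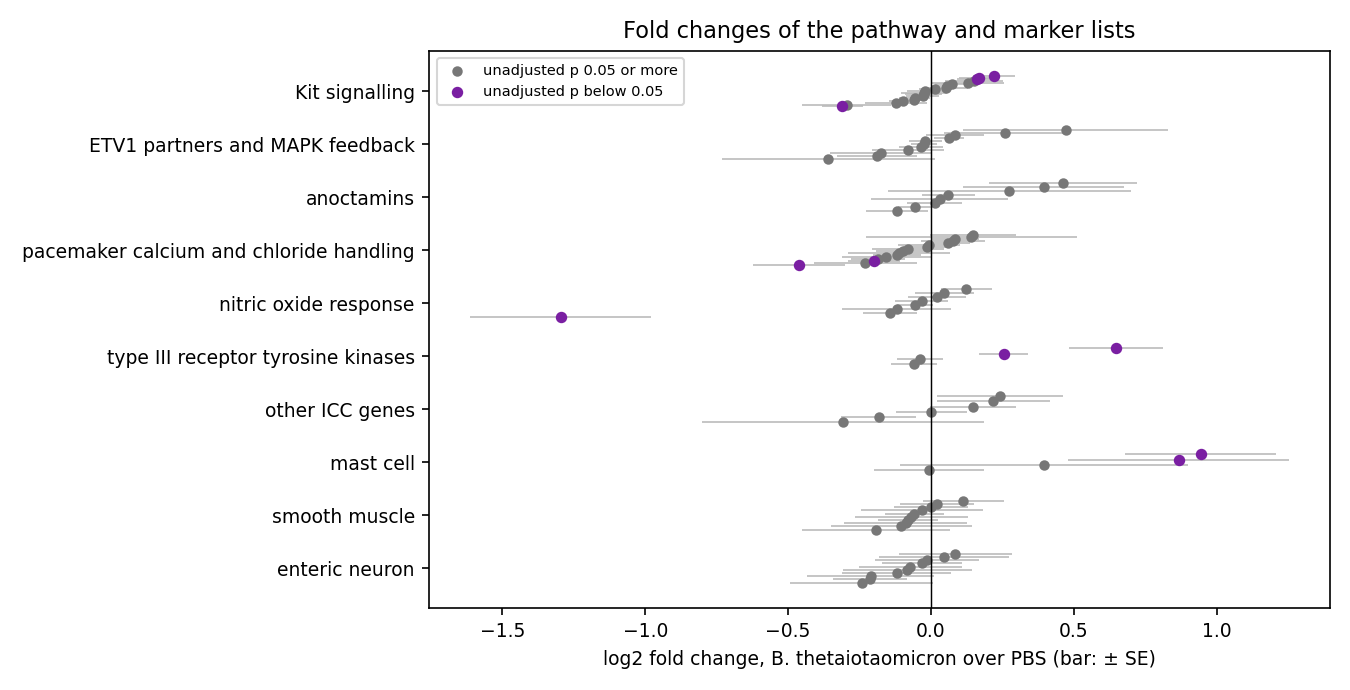
Log2 fold change, B. thetaiotaomicron over PBS, of each tested gene in 10 pathway and marker lists (the distal hindgut list is not among them), with bars for ± SE and purple points where the unadjusted p is under 0.05. None of the genes shown passed an adjusted p of 0.05 in edgeR, and of these Gucy1a2 lies farthest from 0, at -1.30.

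Marker lists of the other cells also had 0 calls. Smooth muscle genes had 2 positive and 8 negative fold changes with a median log2 of -0.06, and enteric neuron genes 2 and 8 with a median of -0.08. The 4 mast cell genes that passed the filter had a median log2 fold change of 0.63, with Mcpt1 at 0.87 ± 0.39 (SE) and Hdc at 0.94 ± 0.27 (SE), and adjusted p of 0.304 and 0.124 in edgeR. Mcpt1 and Mcpt2 have close relatives, so their counts depend on how shared reads were assigned. Epithelial genes had 6 positive fold changes of 6 with a median log2 of 0.18. The 5 secretory genes had 4 of 5 with a median of 0.19. In edgeR, 3 of the 6 epithelial genes, 2 of the 4 mast cell genes and 0 of the 5 secretory genes had an unadjusted p under 0.05. The share over all genes was 15.2%, and the difference of these short lists from it was not tested. Endothelial genes had 1 positive and 4 negative fold changes with a median of -0.11, and enteric glial genes 2 of each. The 2 tested genes of type 3 innate lymphoid cells, which can also express Kit, were both negative, and the 1 tested melanocyte gene was positive at 0.06.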

How the data were processed

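RNA was column-purified and sequenced from 14 colon samples with a SMARTER mRNA kit, per the labels' protocols. The deposited table holds raw read counts for each gene and FPKM values that the authors computed from them, per the file headers. The submitters' processing notes name GRCm38 and mm10; the aligner, counter and strand use were not given in the sources used here. The table's coordinates differ from GENCODE M21 on GRCm38 and were not used. Treatment and batch labels do not vary between samples. Groups therefore came from titles and replicate numbers from library names, and no within-batch value could be computed. The members, gene lists and tests were chosen with earlier results of these data known.

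Genes were filtered by filterByExpr of edgeR (counts of at least 10, and 15 in total), scaled by TMM and tested over all 14070 genes with edgeR 4.0.16 (R 4.3.3; quasi-likelihood F test, robust, group as the only term) and Benjamini-Hochberg adjustment, threshold 0.05. SE was derived from the log2 fold change and F. Levels are TMM-scaled CPM, with a prior count of 2 on the log2 scale. Precision follows from the total counts per library and a biological coefficient of variation of 0.210. The smallest chi-square per degree of freedom between any 2 of the 91 library pairs was 9.28, so no library was counted as a repeat. The test was checked on simulated counts.

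Ratios were compared by two-sided exact permutation, and correlations by permutation with 100000 resamples. The 40 relations to lists, the relations without the 4 libraries, and their scaling alternatives were added after seeing the data; lists with under 3 tested genes (innate lymphoid cells type 3 and melanocytes) had none. Alternatives were DESeq2 1.42.0, limma-voom (limma 3.58.1), other scaling, no filter, covariates, a replicate block, and leaving out libraries. Genes named are the 4 members, the 5 genes most like each, the 2 with the smallest p in each pathway list, the short marker lists and list members that pass the test. Further list genes named in the text were picked with their values known.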

Additional observations from a re-analysis of the deposited data

Results flagged for a closer look

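Among 32 groups of 7 libraries checked for a single library far from the rest, 2 held one, and chance gives about 1 in 20. Kitl in B. thetaiotaomicron library 1 stood at 211 CPM, above the nearest library of its group at 190 CPM. The mean log2 CPM of the 3 genes of PDGFRA-positive cells in B. thetaiotaomicron library 5 was 5.60, above the nearest of its group at 5.36.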

How the results depend on the processing

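None of the 4 genes passed an adjusted p of 0.05 under any of the settings tried, and Kitl kept its positive sign in all of them. The number of genes called over the whole table, 35, was 447 with DESeq2, 87 with a smooth muscle score as covariate, 15 with a replicate block and 0 without the 4 libraries that stood apart (1481 at an unadjusted p under 0.05 there, in smaller and unequal groups). The cause of these changes was not tested. Leaving out 1 library gave 0 (without PBS 5, 6 or 7 or B. thetaiotaomicron 1, 2, 4 or 6) to 121 (without PBS 2) calls. It was 1 without PBS 1 or 3, 2 without B. thetaiotaomicron 7 and 8 without B. thetaiotaomicron 3.

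With the distal hindgut covariate the log2 fold changes were -0.0135 for Kit, 0.10 for Ano1 and -0.057 for Etv1, and without the 4 libraries -0.11, 0.14 and -0.20. Without the 4 libraries, Kitl over Kit differed by 0.11 and Kit over Ano1 by -0.25. Leaving out 1 library gave 0.038 to 0.27 for Kit, -0.36 to -0.049 for Ano1, -0.063 to 0.11 for Etv1 and 0.049 to 0.11 for Kitl. It gave -0.22 to -0.016 for Kitl over Kit and 0.14 to 0.66 for Kit over Ano1. Etv1 turned negative without PBS 1, 3 or 5 or B. thetaiotaomicron 1 or 5.

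Without the 2 farthest libraries, r was 0.55 for Kit with Kitl and -0.59 for Ano1 with Etv1, no longer past the threshold, and 0.68 for Etv1 with Kitl, which passed it, as did 0.62 with library totals alone. Without the 4 libraries r was -0.56 for Kit with Ano1, 0.65 for Kit with Etv1, -0.081 for Kit with Kitl, -0.25 for Ano1 with Etv1, 0.59 for Ano1 with Kitl and -0.045 for Etv1 with Kitl, and none passed. Leaving out 1 library gave -0.85 to -0.78 for Kit with Ano1, 0.72 to 0.81 for Kit with Etv1, 0.49 to 0.79 for Kit with Kitl, -0.74 to -0.43 for Ano1 with Etv1, -0.41 to -0.12 for Ano1 with Kitl and 0.38 to 0.74 for Etv1 with Kitl. Kit with Kitl failed the threshold without PBS 1 or 3, Ano1 with Etv1 without PBS 1, 3, 4 or 5, and Etv1 with Kitl passed it without PBS 4.

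Libraries of the same number did not deviate together in all pairs (r from -0.260 to 0.602), and 1 of 7 correlated best with its own number, so the numbers do not pair the samples. With the replicate block the log2 fold changes were 0.19 for Kit, -0.15 for Ano1, 0.026 for Etv1 and 0.087 for Kitl, and the group differences of the ratios stayed at -0.10 and 0.34. Etv1, at 168 to 405 counts a library, was the least deeply counted of the 4, and genes such as Hcn4 and Cpa3 were too low to test.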
